A study of Mus musculus with 8 samples.

Results

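Cytosolic ribosomal proteins are the protein parts of the ribosome of the cytoplasm, and their messages were measured in whole aortas of 8 mice. Members were the genes of the deposited table whose symbol is Rpl or Rps followed by a number, with or without an a or x, together with Rplp0, Rplp1, Rplp2 and Rpsa. The rule took 76 of 23420 genes, of which 46 belong to the large and 30 to the small subunit. It left out Fau, Gnb2l1 and Rps3a1, among others, which encode ribosomal components under other names. All recipients were lethally irradiated ApoE-/- mice that received fetal liver cells of embryonic day 14 and, after recovery, angiotensin II for 28 days, a model of abdominal aortic aneurysm on a hypercholesterolemic background. In the Ntn1-/- group (4 mice, Ntn1-/-→ApoE-/-) the transplanted cells were Ntn1-/- ApoE-/-, and in the WT group (4 mice, WT→ApoE-/-) they were Ntn1+/+ ApoE-/-. Netrin-1, the secreted guidance protein that Ntn1 encodes, was therefore missing only from cells of donor origin, while vascular cells of the recipient kept an intact gene in both groups. Each aorta gave one library, and the question was whether the messages of the ribosome differed between aortas of the 2 groups.

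A ribosome joins a small subunit, which reads the message, to a large subunit, which forms the peptide bond, and nearly all of its proteins are present in a single copy. Their messages, with those of several elongation factors, begin with a pyrimidine run (the TOP motif) through which mTORC1 controls their translation, so that cells make the set in a coordinated way. Their RNA level is high in every cell type and tends to follow growth and protein synthesis.

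All 75 members that could be tested had lower means in Ntn1-/- than in WT aortas, by a narrow margin that was shared by both subunits. The median member stood at 83.0% of its WT mean, a log2 fold change of -0.27, while the median of all 14931 genes tested was -0.01. Genes more like the members were lower as well. The median was -0.19 for other genes under 1000 bases with over 3000 normalized reads, -0.19 for mitochondrial ribosomal proteins and -0.18 for proteasome subunits. With an offset for transcript length and GC content, the median of the members was -0.16. No member passed an adjusted p of 0.05 in limma. The smallest estimate was that of Rps28 (log2 fold change -0.39), and the estimate nearest to 0 was that of Rps27 (-0.08), a member with very few reads. In bulk tissue, fewer cells of a type and less RNA per cell cannot be told apart.

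The starts of 8 messages are shown because the TOP motif is the sequence feature by which these messages are known to be controlled as a set. They are the 8 members with the smallest p that have an entry among the RefSeq start sites used (GRCm38.p6). Each window runs from 15 bases before to 15 bases after the annotated start, on the strand of the gene, and capitals mark the longest run of C and T.
Rps28, chr17:33824548-33824577, minus strand: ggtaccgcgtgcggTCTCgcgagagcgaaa
Rps26, chr10:128626492-128626521, minus strand: gtcgggcaagccgccggaTCCTCTTTCgag
Rpl36a, chrX:134585639-134585668, plus strand: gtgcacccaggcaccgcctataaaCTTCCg
Rps10, chr17:27635230-27635259, minus strand: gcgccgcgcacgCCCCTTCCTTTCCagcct
Rpl41, chr10:128549154-128549183, minus strand: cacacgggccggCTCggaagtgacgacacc
Rpl10a, chr17:28328456-28328485, plus strand: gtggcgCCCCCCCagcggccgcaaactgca
Rpl38, chr11:114668565-114668594, plus strand: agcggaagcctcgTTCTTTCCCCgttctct
Rpl35, chr2:39005117-39005146, minus strand: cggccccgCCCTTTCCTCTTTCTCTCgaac

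Rps10, Rpl38 and Rpl35 carried runs of 13, 10 and 18 pyrimidines across the annotated start, whereas the longest runs of Rps28 and Rpl41 held 4 and 3. The annotated start is a single position and may not be the start used in the aorta, so that a short run here says only that these letters are not in this window. A run of at least 8 consecutive C or T, searched on the strand of the gene alone, stood in the windows of 25 of the 56 members with an entry (44.6%), against 13.9% of 27025 genes with an entry. Among large-subunit members the share was 50.0%, and among small-subunit members 36.4%. The median log2 fold change was -0.27 for the 25 members with such a run and -0.27 for the 30 tested members without one.

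Most members were covered by many reads. Between 19879329 and 28202931 reads fell in genes per library, recovered from the deposited normalized values, and 72 of the 76 members had means of 3258 to 26208 normalized reads (reads divided by the size factor of the library). Ntn1 itself averaged 7923 ± 2419 normalized reads in Ntn1-/- aortas and 7564 ± 1698 in WT aortas (SD, n = 4 each; log2 fold change 0.04, limma with Benjamini-Hochberg adjustment, adjusted p = 0.959), and since recipient cells keep the gene, its level can check the labels only in part. No pair of libraries agreed within sampling noise, with a chi-square per degree of freedom of 9.51 to 176.3 over the 28 pairs.

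Members took 2.74%, 3.54%, 3.52% and 3.38% of the reads in genes of Ntn1-/- aortas A to D, against 3.82%, 3.64%, 3.67% and 3.90% in WT aortas A to D. All 4 Ntn1-/- aortas lay below all 4 WT aortas, with Ntn1-/- A well below the rest and WT D highest. The widest 95% Wilson interval of a share spanned 0.0166 percentage points, which covers counting error only, so that the spread between mice was far larger than that from depth. The ratio of large-subunit to small-subunit reads was 1.56, 1.56, 1.52 and 1.52 in Ntn1-/- aortas, against 1.56, 1.54, 1.54 and 1.53 in WT aortas. These ratios overlapped, so the balance between the subunits did not separate the groups.

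**Figure D1:**
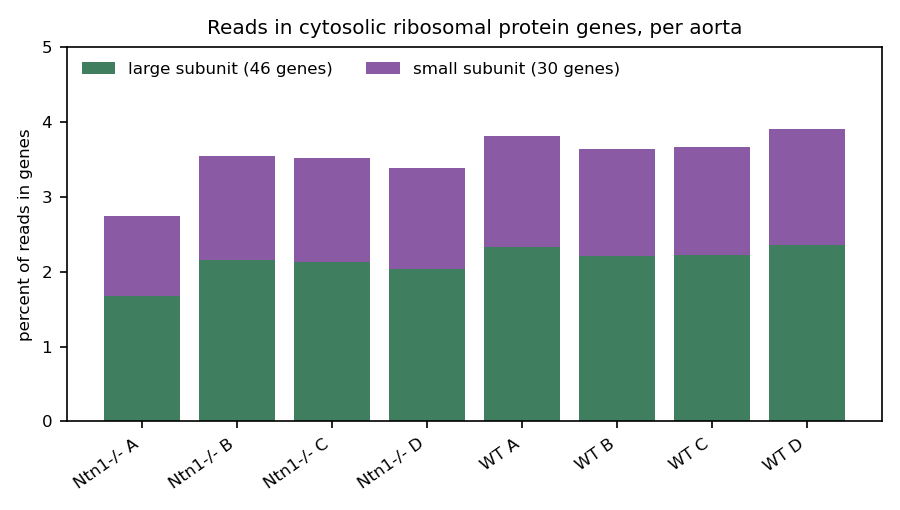
Percent of all reads in genes that fell in the 46 large-subunit (green) and 30 small-subunit (purple) ribosomal protein genes, stacked, for each of the 8 aortas, Ntn1-/- on the left and WT on the right. The 4 Ntn1-/- aortas sit between 2.74% and 3.54%, and the 4 WT aortas between 3.64% and 3.90%.

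Genes were tested with limma on log2(normalized reads + 1) over those with a mean of at least 10, which 75 members passed. Called at an adjusted p under 0.05 were 0 members, against 0.0% of all genes tested, and the smallest adjusted p of any gene was 0.248. At an unadjusted p under 0.05, 54 of the 75 members were lower and 0 higher in Ntn1-/- aortas, beside 7.25% of all genes lower. The count was 27 without Ntn1-/- A (beside 5.26% of all genes lower), 30 without WT A (6.17%) and 23 without WT D (4.6%). It was 7 in edgeR with library sizes only, where the median of all genes moved to 0.07, beside 2.45% of all genes lower. With the offset for length and GC content described below it was 8, beside 5.41%. In 56 of the 75 members every Ntn1-/- aorta lay below every WT aorta, which held for 5.34% of all genes. Lower estimates were found for 52.4% of all genes. edgeR, run on the recovered reads with TMM scaling, also called 0 members. It had 50 at an unadjusted p under 0.05, beside 7.27% of all genes lower. DESeq2 on the same reads called 12 members at an adjusted p under 0.05, all lower, against 1.47% of all genes. The 10 of these with the smallest p were Rplp0, Rplp1, Rpl41, Rpl10a, Rpl12, Rps10, Rpsa, Rpl15, Rps28 and Rpl29.

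**Figure D2:**
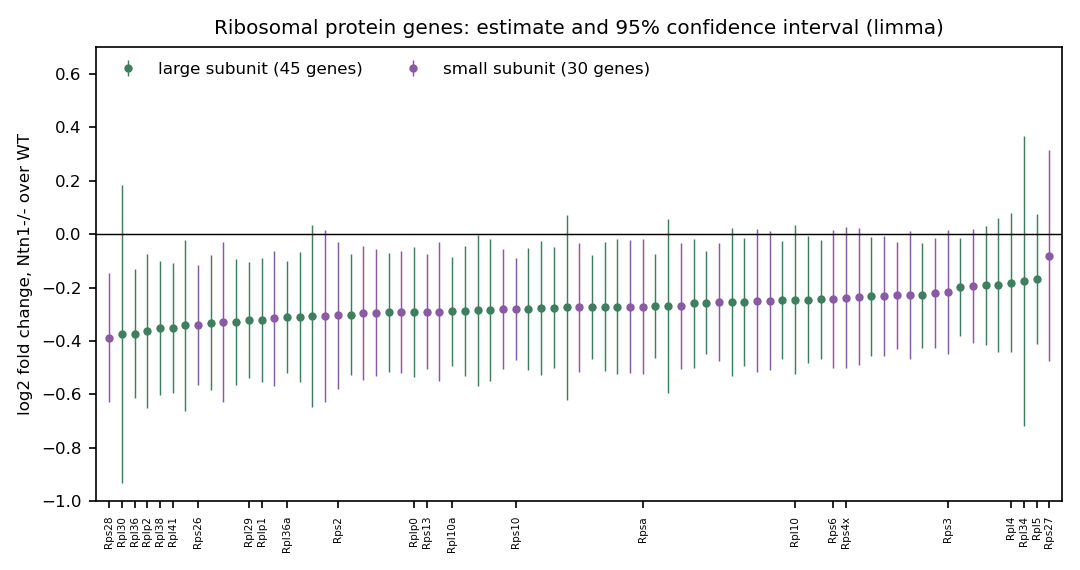
log2 fold change (Ntn1-/- over WT) of each of the 75 tested members from limma, with its 95% confidence interval, ordered from lowest to highest and coloured by subunit, with names under some of the members described in the text. All 75 estimates lie below 0, and large-subunit and small-subunit members are mixed along the order.

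Both subunits gave the same median. Of the 45 large-subunit members tested, 34 were lower at an unadjusted p under 0.05 and 33 had groups that did not overlap, with a median log2 fold change of -0.27. The 30 small-subunit members had 20 and 23 such genes and a median of -0.27. Among all genes, 7.25% were lower at that p and 5.34% were lower without overlap. Estimates ran from -0.37 (Rpl30) to -0.17 (Rpl5) in the large subunit and from -0.39 (Rps28) to -0.08 (Rps27) in the small subunit.

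In the small subunit, Rps28 (chr17:33955972-33961507 in mm9, minus strand) encodes one of the smallest ribosomal proteins. It had 3066, 3802, 4146 and 3902 normalized reads in Ntn1-/- aortas A to D, against 4486, 4716, 4935 and 5279.5 in WT aortas A to D. Every Ntn1-/- value was below every WT value, and Ntn1-/- A was lowest. The log2 fold change was -0.39 (standard error 0.11, limma, Benjamini-Hochberg adjusted p = 0.248). Rps26, which lies at the exit channel for the message, had 3621, 4542, 4778 and 4127 normalized reads in Ntn1-/- aortas, against 5215, 5198, 5254 and 5819 in WT aortas. Its groups did not overlap either, and 3 of the 4 WT values lay within a narrow band below WT D (log2 fold change -0.34, standard error 0.10).

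Rps10, a protein of the beak of the small subunit, averaged 82.5% of its WT mean (log2 fold change -0.28, standard error 0.08). For Rps13, a core protein of the small subunit, the log2 fold change was -0.29. Among the most abundant small-subunit messages, Rpsa, whose product is also known as the laminin receptor, had 20355, 22655, 23184 and 22599 normalized reads in Ntn1-/- aortas, against 25989, 25307, 26414 and 29482 in WT aortas. Its 4 Ntn1-/- values all lay below the lowest WT value (log2 fold change -0.27, standard error 0.11). Rps2, at the entry of the message channel, had an estimate of -0.30 (standard error 0.12), and its groups did not overlap. For Rps4x, an X-linked member, the estimate was -0.24 (standard error 0.12), and Ntn1-/- B at 18879 normalized reads lay above WT B and WT C at 18772 and 18608.

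In the large subunit, Rpl36 (chr17:56752818-56753666 in mm9, plus strand) had 3810, 4685, 4991 and 4369 normalized reads in Ntn1-/- aortas A to D, against 5688, 5317, 5500 and 6565 in WT aortas A to D. The groups did not overlap, and Ntn1-/- A was lowest and WT D highest (log2 fold change -0.37, standard error 0.11, limma adjusted p = 0.248). Rpl41, which encodes a peptide of very few residues, had 11988, 14417, 14878 and 14073 normalized reads in Ntn1-/- aortas, against 16696, 17248, 17287 and 19255 in WT aortas. Here too the highest Ntn1-/- value was below the lowest WT value (log2 fold change -0.35, standard error 0.11). Rpl36a, Rpl29 and Rpl10a, the other large-subunit members with the smallest p, had log2 fold changes of -0.31, -0.32 and -0.29, each with groups that did not overlap.

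Rplp0, Rplp1 and Rplp2 form the P-stalk, the arm of the large subunit that recruits elongation factors. Rplp0 (chr5:116009476-116013736 in mm9, plus strand) had the highest mean of all members, with 22486, 22942, 24220 and 24658 normalized reads in Ntn1-/- aortas, against 27202, 28648, 29151 and 30355 in WT aortas. The spread within each group was narrow and Ntn1-/- A did not stand apart (log2 fold change -0.29, standard error 0.11, DESeq2 adjusted p = 0.00131). Rplp1 averaged 18318 ± 986 normalized reads in Ntn1-/- and 22876 ± 1323 in WT aortas (SD, n = 4 each), or -0.32 on the log2 scale, and its DESeq2 adjusted p was 0.00254. Rplp2 averaged 5043 ± 780 in Ntn1-/- and 6440 ± 593 in WT aortas (SD, n = 4 each), or -0.36 on the log2 scale. In limma the adjusted p of Rplp0 and Rplp1 were 0.267 and 0.251.

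**Figure D3:**
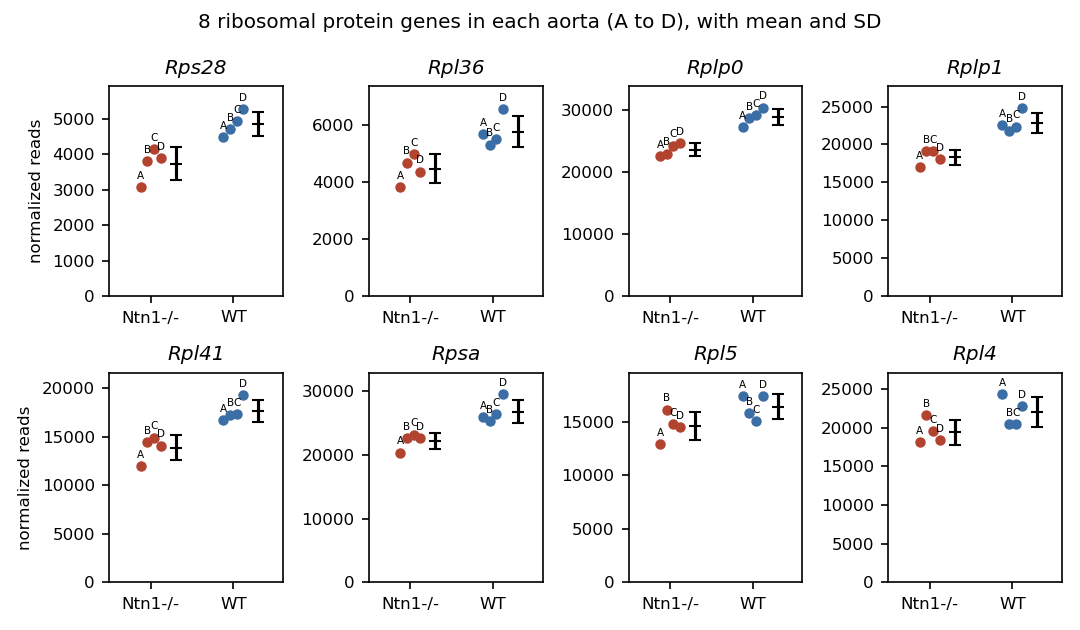
Normalized reads of 8 ribosomal protein genes in each aorta (letters A to D), Ntn1-/- in red on the left and WT in blue on the right, with the mean and SD of each group beside the points. For Rps28, Rpl36, Rplp0, Rplp1, Rpl41 and Rpsa no Ntn1-/- point reaches the lowest WT point, whereas the groups overlap for Rpl5 and Rpl4.

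The smallest differences among well-measured members were also in the large subunit. Rpl5 (chr5:108329521-108338024 in mm9, plus strand), which carries the 5S RNA into the ribosome together with Rpl11, had 12959, 16167, 14831 and 14540 normalized reads in Ntn1-/- aortas, against 17422, 15813, 15046 and 17408 in WT aortas. The groups overlapped because Ntn1-/- B lay above WT B and WT C (log2 fold change -0.17, 95% confidence interval -0.41 to 0.07). Rpl4, one of the largest ribosomal proteins, had 18081, 21612, 19533 and 18356 normalized reads in Ntn1-/- aortas, against 24312, 20449, 20485 and 22747 in WT aortas. Only Ntn1-/- B crossed into the WT range (log2 fold change -0.18, standard error 0.11). Rpl10, among the last proteins to join the large subunit, had an estimate of -0.25 (standard error 0.12) and groups that overlapped.

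The members named next are among those mutated in human Diamond-Blackfan anemia, a failure of red cell production. Their estimates were -0.34 for Rps26, -0.28 for Rps10, -0.27 for Rps19, -0.27 for Rpl35a, -0.25 for Rps24, -0.25 for Rpl11, -0.20 for Rpl15, -0.19 for Rps7 and -0.17 for Rpl5. That of Rpl5 was the nearest to 0 of the 72 members over 100 normalized reads. Rpl26, a further gene of that disease, had 0 reads. Members with known roles of their own gave similar values, among them Rpl38 (-0.35), which in the mouse is needed for the translation of Hox messages, Rpl24 (-0.29), mutated in the belly spot and tail mouse, Rpl13a (-0.26), which in human cells represses inflammatory messages, and Rps14 (-0.25), lost in the human 5q- syndrome. Rps6 (-0.24), the substrate of S6 kinase, Rps27a (-0.23), made as a fusion with ubiquitin, Rpl22 (-0.23), needed for T cell development in the mouse, and Rps3 (-0.22), linked to DNA repair, followed. With Rpsa, Rpl10 and Rpl41, described above, 21 of the 22 listed could be tested. All 21 had lower estimates, beside 52.4% of all genes. An unadjusted p under 0.05 was found for 14 of them, beside 7.25% of all genes lower. The median log2 fold change of the 21 was -0.25.

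A few members carried almost no reads. Rpl26 (chr11:68715085-68720491 in mm9), a protein near the exit of the nascent chain, had 0 reads in each of the 8 libraries, which allows at most 3 reads, or 1.06e-05% to 1.51e-05% of the library. Rpl30 had 12, 13, 13 and 15 reads in Ntn1-/- aortas, against 12, 23, 12 and 13 in WT aortas. Rpl34 had 27, 35, 22 and 24 reads in Ntn1-/- aortas, against 18, 32, 29 and 23 in WT aortas, and the groups overlapped. For Rps27 the reads were 31, 24, 25 and 31 in Ntn1-/- aortas, against 22, 28, 25 and 22 in WT aortas, which overlapped too. Per length these genes stood at 24.7 (Rpl30), 54.6 (Rpl34) and 74.9 (Rps27) normalized reads per kilobase, whereas the median member stood at 14091. Such values say little about the messages of genes that all cells use. Many processed pseudogenes of ribosomal proteins lie in the mouse genome, and reads that fit several places can be dropped or moved, depending on a counting setting not given in the sources used here. Of the 50-base windows of the spliced transcript, 99.7% occurred elsewhere in mm9 for Rps27, 81.8% for Rpl26, 64.0% for Rpl34 and 62.8% for Rpl30. Rps6, with 94.7% of its windows found elsewhere, nevertheless had at least 11721 normalized reads in each library, and the part of shared sequence in the low values was not tested further.

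The median difference was the same with little and with much shared sequence. The 12 members with under 35% of windows found elsewhere had a median log2 fold change of -0.27, and the 62 members with more had -0.27. The split at 35% was not planned, and the 12 include Rps20, whose share depends on its assigned transcript of 3706 bases. Rps3, with 4.54% of windows found elsewhere, had 11800, 13752, 14760 and 13453 normalized reads in Ntn1-/- aortas, against 15771, 14942, 15004 and 16671 in WT aortas, so that its groups did not overlap.

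Members moved as one set from aorta to aorta. The 72 members over 100 normalized reads had a mean deviation from their own means of -0.34, -0.03, -0.03 and -0.14 (log2) in Ntn1-/- aortas A to D, against 0.16, 0.07, 0.07 and 0.25 in WT aortas A to D. Both subunits had the same profile, with large minus small between -0.02 and 0.02 in every library. A single component held 92.4% of the variance of these 72 genes over the 8 libraries, and each gene's values correlated with the list mean at a median r of 0.97 (lowest 0.65), as a description over libraries that share depth and scaling. Ntn1-/- A was the lowest library for 71 of the 72 members and WT D the highest for 62. Without those 2 libraries, an alternative chosen after seeing the data, the median was -0.16, all 75 estimates were still lower, and 14 members had an unadjusted p under 0.05, beside 4.23% of all genes lower. Relative to the list mean, Rps28, Rpl36 and Rplp2 departed furthest downward (-0.11, -0.10 and -0.09), and Rpl5, Rpl4 and Rpl7 furthest upward (0.11, 0.09 and 0.08).

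**Figure D4:**
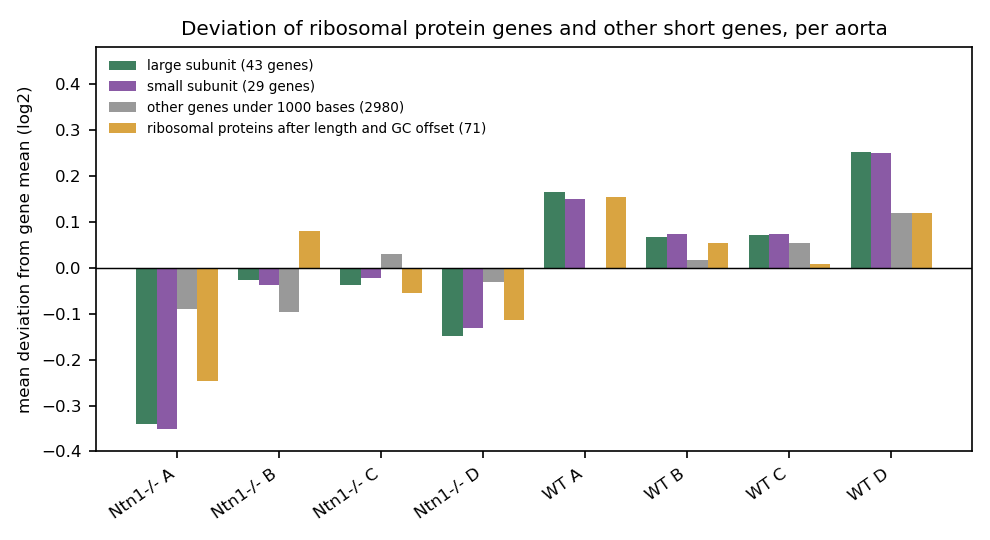
Mean deviation from each gene's own mean (log2) in each aorta, Ntn1-/- left and WT right, for 43 large-subunit members, 29 small-subunit members, 2980 other genes with transcripts under 1000 bases, and 71 members after a per-library length and GC offset. The subunits coincide in every aorta, from about -0.34 in Ntn1-/- A to 0.25 in WT D, and the offset leaves Ntn1-/- A at -0.25 and puts Ntn1-/- B at 0.08, above WT B and C.

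Transcript length moved with the group as well. Other genes had a slope of the deviation on length of 0.064, 0.085, -0.0012 and 0.025 (log2 per doubling of length) in Ntn1-/- aortas A to D, against -0.017, -0.024, -0.051 and -0.082 in WT aortas A to D. Every Ntn1-/- slope was above every WT slope, though that of Ntn1-/- C was close to 0. The 2980 other genes under 1000 bases deviated by a mean of -0.09, -0.10, 0.03 and -0.03 (log2) in Ntn1-/- aortas A to D, against -0.0021, 0.02, 0.05 and 0.12 in WT aortas A to D. Short genes were thus not lower in every Ntn1-/- aorta, since Ntn1-/- C lay above WT A and WT B. Members are short, with a median spliced length of 637 bases, against 2096 bases for all genes tested. The median log2 fold change was -0.14 for other genes under 600 bases and 0.13 for those of 4000 bases or more. The 28 members under 600 bases had a median of -0.29 and the 37 from 600 to under 1000 bases -0.27. Abundant short genes came closer, since 366 other genes under 1000 bases with over 3000 normalized reads had a median of -0.19, and 85.0% of them had lower estimates. Among 71 members, shorter and more GC-rich messages had the lower estimates (Spearman's rho of the log2 fold change 0.41 with length and -0.55 with GC content, given as a description across genes).

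With an offset for length and GC content in each library, the median of the members was -0.16, against -0.03 for all genes. Of 74 members with a length, 73 still had lower estimates, the exception being Rps27. An unadjusted p under 0.05 was found for 8, beside 5.41% of all genes lower. Among the 8 was Rps20 (-0.43 with the offset, -0.23 without), whose assigned transcript of 3706 bases is far longer than those of most members. The groups no longer separated at the level of the list mean, which stood at -0.25, 0.08, -0.06 and -0.11 in Ntn1-/- aortas, against 0.15, 0.05, 0.01 and 0.12 in WT aortas. Ntn1-/- B lay above WT B and WT C. The offset is fitted over all genes with a length and removes what goes with length or GC content among them, whatever its source. Among 71 members, Spearman's rho of the estimate with the offset was 0.22 with length and 0.30 with GC content. The part of length in the values of the members was not tested beyond it.

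**Figure D5:**
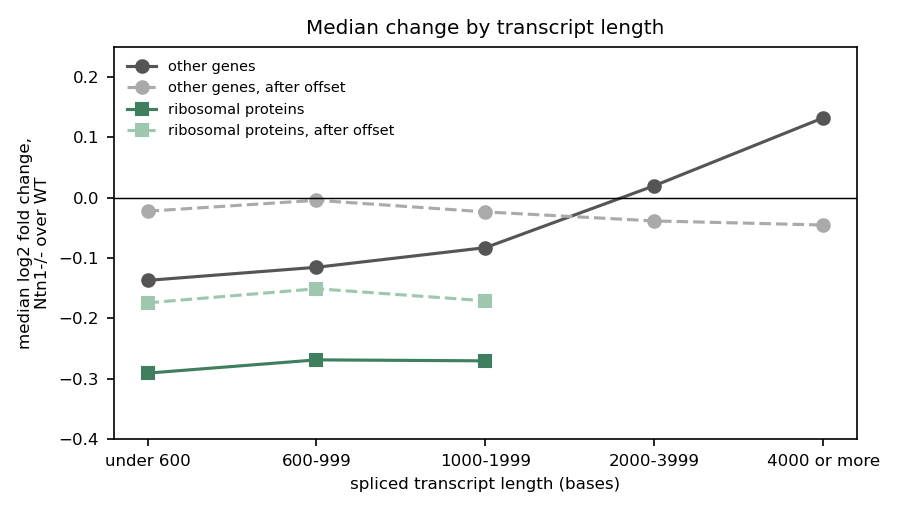
Median log2 fold change (Ntn1-/- over WT) by spliced transcript length, for other genes and for members, as tested (solid lines) and after the length and GC offset (dashed lines). Without the offset other genes run from -0.14 under 600 bases to 0.13 at 4000 bases or more, while members in the 3 shorter classes lie between -0.29 and -0.27, and with it between -0.17 and -0.15, the 1 member of 2000 to 4000 bases (-0.23, and -0.43 with the offset) being left out.

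Other protein complexes with short messages had medians nearer to 0. Mitochondrial ribosomal proteins (76 genes) had a median of -0.19, with 75 lower estimates but only 10 at an unadjusted p under 0.05 and 1 with groups that did not overlap. Proteasome subunits (40 genes) had a median of -0.18, with 39 lower estimates, 14 at an unadjusted p under 0.05 and 9 without overlap. After the offset both medians were -0.11, against -0.16 for the cytosolic members. No test compared these sets.

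Ribosomal components outside the naming rule resembled the members. Fau, which encodes a ribosomal protein fused to a ubiquitin-like domain, had 6789, 8885, 9189 and 8551 normalized reads in Ntn1-/- aortas, against 10024, 9778, 10039 and 11483 in WT aortas, with no overlap (log2 fold change -0.31). Gnb2l1 (-0.24), the scaffold protein RACK1 of the small subunit, and Rps3a1 (-0.19) had lower means as well. Among 10 tested genes of a list of ribosomal-protein-like genes, 9 had lower estimates and the median was -0.25. At an unadjusted p under 0.05, 7 (70.0%) were lower, beside 7.25% of all genes.

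Of 13 genes that share the TOP motif or serve elongation, 11 had lower estimates. At an unadjusted p under 0.05, 4 (30.8%) were lower, beside 7.25% of all genes. The median of the 13 was -0.18. After the offset it was -0.14, close to the -0.16 of the members, and no test compared the lists. Eef1b2, an exchange factor of elongation, had a log2 fold change of -0.22, the galectin gene Lgals1 of -0.28 and Btf3, which binds nascent chains, of -0.19. Genes that build the ribosome gave mixed values: of 45, 35 had lower estimates. At an unadjusted p under 0.05, 16 (35.6%) were lower, beside 7.25% of all genes, and 1 was higher. The median of the 45 was -0.10, or -0.12 after the offset. Nop2, an RNA methyltransferase of the large subunit, had 664 ± 34.7 normalized reads in Ntn1-/- and 847 ± 86.9 in WT aortas (SD, n = 4 each), or -0.34 on the log2 scale. Polr1c, a subunit of RNA polymerases I and III, had -0.29 and the methyltransferase Fbl -0.27.

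The mTORC1 pathway, which controls translation of TOP messages, showed no common direction. Of 24 genes, 14 had lower estimates, 2 were lower and 3 higher at an unadjusted p under 0.05, and the median was -0.04. At that p, 8.33% of the list was lower, beside 7.25% of all genes. In either direction 20.8% of the list passed, beside 15.6% of all genes. Deptor, an inhibitor within mTOR complexes, averaged 101 ± 17.2 normalized reads in Ntn1-/- and 45.1 ± 9.45 in WT aortas (SD, n = 4 each), with no overlap (log2 fold change 1.15, limma adjusted p = 0.248). Eif4ebp2, a repressor of cap-dependent translation, and Tsc1, part of the complex that holds mTORC1 back, had log2 fold changes of 0.27 and 0.23. With the offset these were 0.40 for Eif4ebp2 and 0.06 for Tsc1. The data are RNA levels and contain no measure of translation.

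Markers of the cells in the wall were checked beside the members, as summed normalized reads. Smooth muscle (8 genes, 7 lower) gave 314200 to 815000 in Ntn1-/- and 468000 to 778900 in WT aortas, and endothelium (6 genes, 1 lower) 16440 to 21560 in Ntn1-/- and 17900 to 19410 in WT aortas. Fibroblasts (7 genes, 6 lower) gave 190400 to 356800 in Ntn1-/- and 217700 to 386900 in WT aortas, and macrophages (7 genes, 7 lower) 17950 to 72880 in Ntn1-/- and 29640 to 65350 in WT aortas. No marker of these 4 lists was at 0 in every library. Among other tissues, liver (8 genes, 8 lower) gave 131 to 1482 in Ntn1-/- and 179 to 6953 in WT aortas, and neurons (8 genes, 0 lower) 1888 to 9046 in Ntn1-/- and 1455 to 1895 in WT aortas. Of the liver markers 4 were lower at an unadjusted p under 0.05 (median log2 fold change -2.66), and of the neuron markers 7 were higher (median 1.48), 4 of them without overlap. Among all genes, 7.25% were lower at that p, and 15.6% passed it in either direction. Skeletal muscle (8 genes, 1 lower) gave 243.5 to 7485 in Ntn1-/- and 301 to 2630 in WT aortas, and adipocytes (6 genes, 6 lower) 77950 to 203200 in Ntn1-/- and 104300 to 234700 in WT aortas. T cells and thymocytes (9 genes tested, 3 lower) gave 396 to 1048 in Ntn1-/- and 455 to 860.4 in WT aortas, and B cells (4 genes, 0 lower) 136 to 322 in Ntn1-/- and 64.8 to 235.5 in WT aortas. Of 5 red cell markers, 4 were at 0 in every library. The other, Alas2, gave 516 to 5901 in Ntn1-/- and 1050 to 4468 in WT aortas (log2 fold change 0.04). The summed ranges overlapped between the groups, those of the neuron markers only between Ntn1-/- A and WT A, and the part of cell composition in the values of the members was not tested.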

How the data were processed

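RNA of whole aortas of 4 Ntn1-/-→ApoE-/- and 4 WT→ApoE-/- mice was sequenced by the authors as single-end reads of 50 nucleotides, aligned to mm9 with TopHat2 2.0.9 and counted per gene with featureCounts. Its version, annotation, strand and multi-mapping settings are not given in the sources used here. The authors deposited a signal for each gene in each library, namely its reads over a DESeq2 size factor. Deposited columns of the authors' own comparison (fold changes, p-values) were not used. Reads were recovered from the spacing of low values within a library. They were whole within 0.001 for 100.0% of 187360 values and summed to 19879329 to 28202931 per library.

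Genes with a mean of at least 10 normalized reads were tested with limma 3.58.1 (R 4.3.3) on log2(value + 1), with mean-variance trend and Benjamini-Hochberg adjustment over all 14931 genes. The pseudocount understates changes of low genes. P-values measure the spread between 4 mice a group. edgeR 4.0.16, DESeq2 1.42.0 and limma-voom on recovered reads, other pseudocounts, no filter, the replicate letter as a replicate block, each library left out, and a spline offset per library on transcript length and GC content (14688 genes with a length) were alternatives. Rpl41 had no mm9 annotation here and is missing from the offset. Length and GC content are those of the coding transcript of lower-median length, for the 14244 tested genes that have one. For the rest of the 14688 they are those of all annotated exons of the gene joined. The transcript used may not be the one made in the aorta. For Rps20 the length was 3706 bases, at 2450 normalized reads per kilobase. The offset estimate of Rps20 and its share of windows found elsewhere (10.1%) depend on that choice. Fits were tested on simulated data.

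Members are named by rule: the 5 smallest p of each subunit, the 3 highest means of each, the 3 lowest means, the smallest p among higher estimates (none), the P-stalk, the ribosomopathy and moonlighting list, and the 10 smallest p among members called by another tool. Of the other lists (ribosomal-protein-like genes, elongation and TOP genes, ribosome biogenesis, mTORC1, cell markers), up to 3 genes with the smallest p are named. Rpl3, Rpl7, Rpl34, Rpl35, Rps20, Rps3a1, Gnb2l1, Fau and the order of departures were singled out after their values were seen. The members and lists were chosen with earlier results of these data known. Start windows come from RefSeq (GRCm38.p6), where 56 of 76 members had an entry. Some genes that the rule names are not reported here.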

Additional observations from a re-analysis of the deposited data

Results flagged for a closer look

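In each group of 4 aortas, the highest or lowest value was compared with its nearest neighbour (Dixon's test) for 80 groups of values (the members named by rule, the share of reads and the large-minus-small deviation, in Ntn1-/- and in WT aortas), and 3 stood apart, where chance would give about 4.0. Rps26 had 5819 normalized reads in WT D, against 5198 to 5254 in the other WT aortas. Rpl11 had 11522 normalized reads in WT D, against 10194 to 10234 in the other WT aortas. Rps27 had 29.1 normalized reads in WT C, against 25.3 to 26.0 in the other WT aortas, a difference of a few reads. WT D was the highest library for 62 of 72 members.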

How the results depend on the processing

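Members called at an adjusted p under 0.05 numbered 0 in limma and 0 under the alternatives other than DESeq2, which called 12. The thresholds of 0.1 and 0.01 also gave 0 in limma. Against 54 members with an unadjusted p under 0.05, edgeR with library sizes only gave 7, beside 2.45% of all genes lower. There the median of all genes moved to 0.07 and that of the members was -0.19. The length and GC offset gave 8, beside 5.41%. The fit without Ntn1-/- A and WT D together, chosen after seeing the data, gave 14, beside 4.23%. Leaving out 1 library at a time gave 23 to 55 such members, beside 4.37% to 7.13% of all genes lower. The medians were then -0.31 to -0.21. Leaving out Ntn1-/- B and C together gave a median of -0.37. With the replicate letter as a replicate block the count was 23 (beside 4.76% of all genes lower). With the block and the offset it was 3 of 74 members, beside 3.34% of all genes lower. The letters were not taken to pair the mice, since deviations of libraries with the same letter correlated at -0.01, -0.30, 0.15 and -0.26 for A to D, and only C correlated best with its own letter. Rps27 changed sign under the offset, with and without the block, to 0.012. The cause of these changes was not tested. Over 37 named members and 21 alternatives, 773 of 775 estimates were lower, and 11 were past an adjusted p of 0.05, all in DESeq2. Rpl30, Rpl34 and Rps27 rest on few reads and Rpl26 on none.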
